A study of Homo sapiens with 4 samples.

Results

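The histone genes were examined in MCF10A.B2 cells with and without a short hairpin RNA (shRNA) against the kinase PAK1. A gene was counted as a histone gene when its name on the array began with HIST1H, HIST2H, HIST3H, HIST4H, H1F, H2AF or H3F and its spots were not controls. This rule found 82 of the 27193 gene names on the array, read by 100 probes of 60 bases. Of these, 68 were clustered HIST genes and 14 were variant genes named H1F, H2AF or H3F.

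MCF10A.B2 is a non-tumorigenic line of human mammary epithelial cells with a chimeric ErbB2 (Her2) receptor that the small molecule AP1510 activates by crosslinking it. The study compared 2 samples labeled control with 2 in which these cells carried the hairpin, here called PAK1 shRNA. The construct is tetracycline inducible, and the labels call the control cells only control and PAK1 wild type. The study's methods set MCF10A.B2 cells beside those with the hairpin, which would make the control the parental line, but do not say so of these arrays. All 4 samples were serum starved for 3 h and received AP1510 for 15 min before RNA was extracted, so the comparison holds no sample without receptor activation. Where the replicates came from is not given, so that p-values measure only the spread between these samples, which may be technical. Each sample was hybridized to 1 Agilent one-color whole genome array, and levels are log2 normalized intensities.

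Histones are the proteins around which DNA is wound: H2A, H2B, H3 and H4 form the core of the nucleosome, and H1 binds the DNA that links nucleosomes. Most histone protein is made in S phase from the clustered replication-dependent genes, which lack introns and whose mRNA ends in a conserved stem-loop instead of a poly(A) tail. Variant histones such as H2A.Z, H2A.X, macroH2A and the replacement H3 are encoded by single genes outside the large clusters, mostly with polyadenylated mRNA, and are made at other times of the cell cycle as well. Some clustered genes also give polyadenylated mRNA, which is known from cells that leave the cell cycle or differentiate. The labels name a linear amplification kit for labeling, which primes cDNA on poly(A) tails. A value of a clustered gene here is therefore the RNA that this priming reached, and the share of each mRNA with a poly(A) tail was not measured.

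PAK1 itself gave 11.19 and 11.27 in control cells and 10.44 and 10.52 in PAK1 shRNA cells, with groups that did not overlap and a log2 fold change of -0.75 ± 0.08 (SE, limma adjusted p = 0.000192, n = 2 per group). Of 21990 genes tested, 6787 (30.9%) were higher and 6964 (31.7%) lower in PAK1 shRNA cells at an adjusted p under 0.05, together 62.5%, with a median log2 fold change of 0.02. A count of histone genes has to be read against these shares. Each of the 10 basal epithelial markers checked, with KRT5 and TP63 among them, was well above background on all 4 arrays, as were 3 of 5 fibroblast markers, LUM, DCN and COL1A1, with PDGFRB above it on 3 arrays and COL3A1 on none. Of these basal markers, 4 were higher and 5 lower in PAK1 shRNA cells. Of 4 luminal markers tested 1 was higher and 2 lower, of 4 fibroblast markers 3 were higher and 1 lower, and of 5 leukocyte markers 2 were higher, CD68 and CD14. The summed level of the 4 leukocyte markers with a value on every array was 9.93 and 9.89 (log2) in control and 12.55 and 12.99 in PAK1 shRNA cells, and that of the 4 fibroblast markers 12.20 and 11.95 against 12.97 and 12.93. The summed luminal level lay between 11.02 and 11.08 on all arrays. The part of these markers in the histone values was not tested.

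Of the 82 histone genes, 78 had a probe that was well above background on each array of 1 group or more and were tested, 64 clustered and 14 variant. The other 4, HIST1H2BA, HIST1H4G, HIST2H4A and HIST2H2BA, did not pass. Of the 78, 77 were well above background on all 4 arrays, and HIST1H1T passed through the PAK1 shRNA group, with 1 of 2 control arrays above background. No histone probe was saturated. The 2 control arrays stood apart in these genes: control 2 was above control 1 in 62 of 63 clustered genes with a value on both, by a median of 0.24, against 49.7% of all genes and 8 of 14 variant genes. PAK1 shRNA 2 was above PAK1 shRNA 1 in 54 clustered genes, by a median of 0.08, against 46.4% of all genes.

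Among the 64 clustered genes, 23 were higher (35.9%) and 26 lower (40.6%) in PAK1 shRNA cells, beside 30.9% and 31.7% of all genes. Their median log2 fold change was 0.03, close to that of all genes, and it lay between -0.07 and 0.08 when each array was left out in turn. Among the 14 variant genes, 3 were higher (21.4%) and 9 lower (64.3%), with a median of -0.77. Clustered genes thus moved both ways, over a range from -4.49 for HIST1H1A to 3.45 for HIST2H2AA4, and the directions differed by histone class. In bulk RNA, fewer cells that make a histone mRNA and less of that mRNA per cell cannot be told apart.

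**Figure D1:**
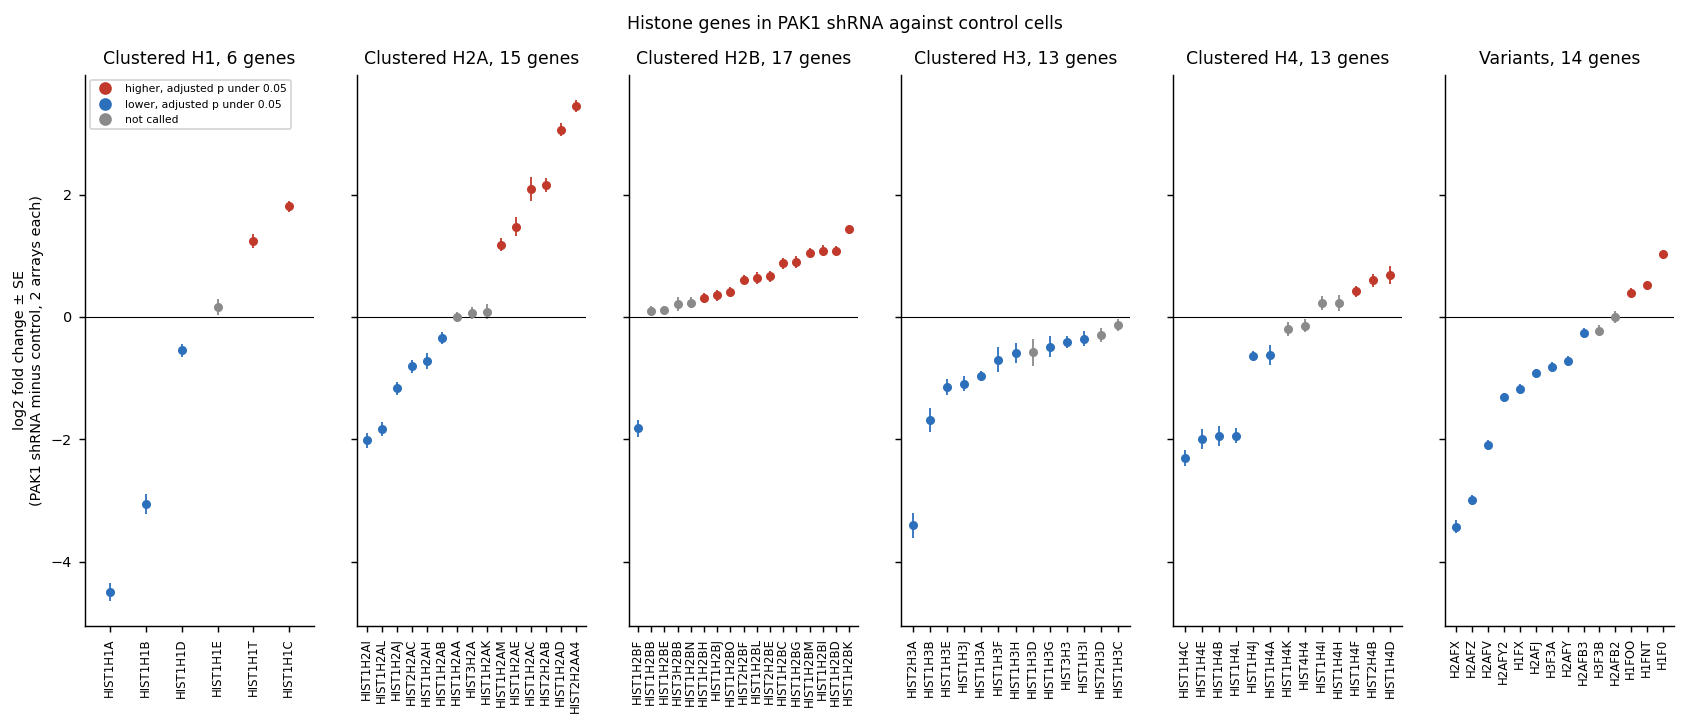
The log2 fold change (PAK1 shRNA minus control, y axis) of each of the 78 histone genes tested, with bars of 1 SE from limma over 2 arrays per group, sorted within the 5 classes of clustered genes and the variants. Clustered H2B genes lie almost all above 0 (12 higher, 1 lower) and clustered H3 genes all below 0 (10 lower), while H1, H2A and H4 genes reach both sides.

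The H2A variants fell in most cases: 7 of 8 were lower (87.5%, beside 31.7% of all genes) and none higher, with a median log2 fold change of -1.12. H2AFX, whose product H2A.X is phosphorylated around DNA breaks, gave 13.44 and 13.68 in control cells and 10.09 and 10.18 in PAK1 shRNA cells. This was the largest fall among the variants, to 9.32% of the control level (log2 fold change -3.42 ± 0.10, adjusted p = 1.48e-06). H2AFZ, which encodes one of the proteins known as H2A.Z, found at promoters of active genes, gave 16.16 and 16.23 against 13.27 and 13.15, or 12.6% of control (-2.99 ± 0.08, adjusted p = 1.08e-06). H2AFV, the other H2A.Z gene, gave 15.23 and 15.33 against 13.24 and 13.15 (-2.09 ± 0.08, adjusted p = 3.52e-06). In all of these genes both PAK1 shRNA arrays lay far below both control arrays. The second H2AFV probe was not well above background on either PAK1 shRNA array.

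The macroH2A genes, whose products carry a large extra domain and are enriched in silent chromatin, were lower by less. H2AFY gave 16.01 and 15.92 in control and 15.30 and 15.20 in PAK1 shRNA cells (-0.72 ± 0.08, adjusted p = 0.000288), and H2AFY2 gave 9.34 and 9.38 against 8.01 and 8.08 (-1.31 ± 0.07, adjusted p = 1.5e-05). H2AFJ, a mammalian H2A variant, gave 14.57 and 14.61 against 13.65 and 13.69 (-0.92 ± 0.07, adjusted p = 6.06e-05), while a dimmer second probe fell by less (-0.28 ± 0.07, adjusted p = 0.0125). The groups did not overlap in any of these genes. The H2A.B genes, which are known from testis, were the exception. H2AFB2 gave 7.81 and 7.63 against 7.81 and 7.63, with overlapping groups (0.00 ± 0.10, adjusted p = 0.989). H2AFB3 gave 7.29 and 7.15 against 7.01 and 6.90 (-0.26 ± 0.09, adjusted p = 0.0351), a call that was lost without control replicate 1 (adjusted p = 0.141), without PAK1 shRNA replicate 1 (0.0524) and without PAK1 shRNA replicate 2 (0.167). The accessions listed for the H2AFB2 probes name 3 near-identical genes, so its value cannot be given to 1 of them.

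H3F3A and H3F3B encode the same replacement histone H3, which is put into chromatin outside DNA replication. H3F3A gave 17.83 and 17.86 in control and 17.08 and 16.97 in PAK1 shRNA cells (-0.82 ± 0.08, adjusted p = 0.000144). Its other probes were lower too, one of them at -0.91 ± 0.08. H3F3B gave 15.94 and 16.10 against 15.73 and 15.86, a difference of -0.22 ± 0.09 that did not pass the threshold (adjusted p = 0.0688). It passed without control replicate 1 (-0.30, adjusted p = 0.0452) and with the replicate number as a block (adjusted p = 0.0442).

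Of the 4 variant linker histones, 3 were higher (75%, beside 30.9% of all genes), among them the germ-line genes H1FNT and H1FOO. H1F0, a linker histone known to accumulate in cells that have stopped dividing, gave 7.90 and 7.84 in control and 8.86 and 8.92 in PAK1 shRNA cells, a 2.03-fold rise (1.02 ± 0.07, adjusted p = 4.43e-05). H1FNT, known from spermatids, rose from 8.88 and 8.86 to 9.32 and 9.45 (0.51 ± 0.08, adjusted p = 0.0014). H1FOO, known from oocytes, rose from 6.78 and 6.70 to 7.15 and 7.12 (0.40 ± 0.07, adjusted p = 0.00332). This signal was dim, and the rise was 0.21 when the background correction was fitted on all spots, where it still passed. H1FX was the one that fell, from 10.27 and 10.41 to 9.13 and 9.19 (-1.18 ± 0.08, adjusted p = 3.8e-05). The groups did not overlap in any of these linker genes.

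**Figure D2:**
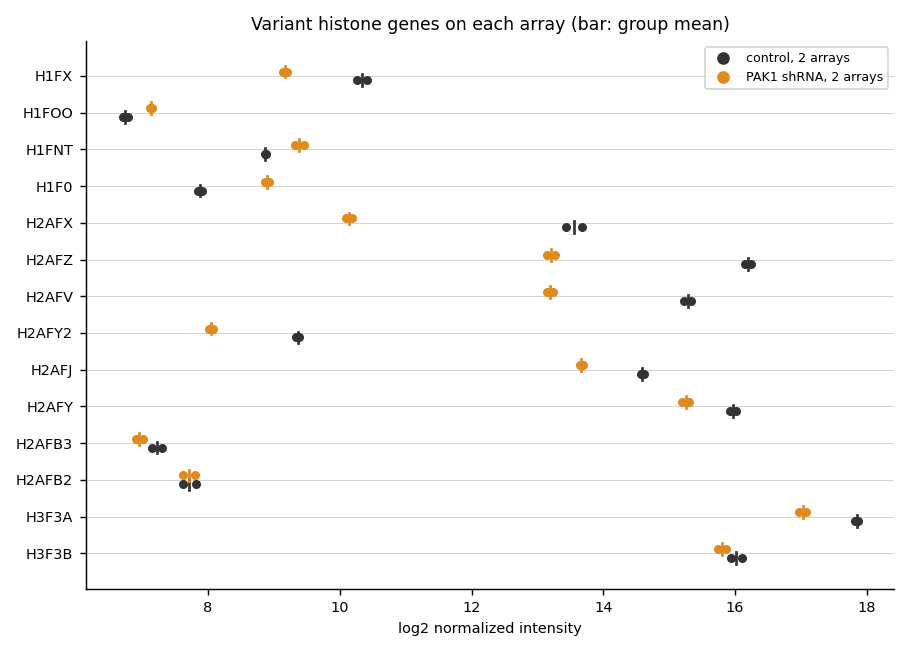
The log2 normalized intensity (x axis) of the 14 variant histone genes on each of the 2 control and 2 PAK1 shRNA arrays, with a short bar at each group mean. H2AFX, H2AFZ and H2AFV show the widest gaps between the groups, to the lower side in PAK1 shRNA cells, and the arrays of H2AFB2 overlap.

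Of the 6 clustered H1 genes, 3 were lower (50%) and 2 higher (33.3%), beside 31.7% and 30.9% of all genes. Their fold changes spread more widely than in any other class. HIST1H1A, a linker histone gene known from few tissues, gave 11.96 and 12.38 in control and 7.76 and 7.60 in PAK1 shRNA cells. That is 4.46% of the control level, the largest fall of any histone gene tested (-4.49 ± 0.15, adjusted p = 1.88e-06). HIST1H1B gave 9.51 and 10.05 against 6.71 and 6.73 (-3.06 ± 0.17, adjusted p = 1.37e-05). HIST1H1D was lower by less (-0.55 ± 0.10, adjusted p = 0.0037), and HIST1H1E gave 0.16 ± 0.13 (adjusted p = 0.315). HIST1H1C, one of the clustered genes known to give polyadenylated mRNA, gave 12.86 and 13.01 against 14.71 and 14.77, a 3.49-fold rise (1.81 ± 0.08, adjusted p = 7.2e-06). The testis gene HIST1H1T gave 6.34 and 6.38 in control cells, where 1 of 2 arrays was well above background, and 7.45 and 7.75 in PAK1 shRNA cells. It was tested only because the PAK1 shRNA group passed the filter, and without it 1 of 5 H1 genes was higher, with a median of -0.55, and 22 of 63 clustered genes (34.9%).

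The start regions of HIST1H1A and HIST1H1C are shown because these neighbors in one cluster gave the largest fall and the largest rise of the class, with those of H2AFX and HIST1H2BK for a variant that fell and an H2B gene that rose. Each is the 150 bases before the transcription start in RefSeq, GRCh38.p14, read 5′ to 3′. Capitals mark CCAAT (the box bound by NF-Y), TATAAA (the TATA box) and ATTTGCAT (the octamer bound by Oct factors), searched on both strands, so that ATTGG is CCAAT on the other strand.
HIST1H1A (chr6:26017788-26017937, minus strand): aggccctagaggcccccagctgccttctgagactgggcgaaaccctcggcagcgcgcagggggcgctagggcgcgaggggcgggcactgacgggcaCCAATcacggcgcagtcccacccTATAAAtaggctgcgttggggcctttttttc
HIST1H1C (chr6:26056471-26056620, minus strand): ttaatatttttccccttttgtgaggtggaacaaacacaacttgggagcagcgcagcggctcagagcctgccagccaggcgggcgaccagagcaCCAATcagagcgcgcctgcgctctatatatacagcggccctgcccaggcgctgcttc
H2AFX (chr11:119095466-119095615, minus strand): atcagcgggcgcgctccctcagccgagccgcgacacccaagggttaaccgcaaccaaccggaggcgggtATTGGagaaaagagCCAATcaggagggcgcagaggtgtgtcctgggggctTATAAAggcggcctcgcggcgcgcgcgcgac
HIST1H2BK (chr6:27146859-27147008, minus strand): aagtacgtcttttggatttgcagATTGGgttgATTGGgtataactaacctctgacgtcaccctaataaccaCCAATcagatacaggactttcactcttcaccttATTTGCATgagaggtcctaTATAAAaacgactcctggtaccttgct
A CCAAT box stands in each of them, and the octamer only in that of HIST1H2BK.

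Promoters of this kind were found for 75 of the 82 histone genes, and the 250 bases before the start were searched. CCAAT was in 52 of 62 clustered promoters (83.9%) and 10 of 13 variant promoters, against 33.0% of 27305 promoters of all genes. All clustered H1, H2A, H2B and H3 promoters held it, but only 3 of 13 H4 promoters. TATAAA was in 40 of 62 clustered promoters (64.5%) and 4 of 13 variant promoters, against 11.1% of all. ATTTGCAT was in 10 of 14 H2A and 14 of 18 H2B promoters, in 1 of 11 H3 and in none of the H1 and H4 promoters, against 1.66% of all. That H3 promoter, of HIST1H3D, is the same window as that of HIST1H2AD in the RefSeq table, so it is counted in both classes. Among tested H2B genes with the octamer, 10 of 13 were higher and 1 lower, and among those without it 2 of 4 were higher, beside 30.9% of all genes higher and 31.7% lower. Among tested H2A genes with it, 5 of 10 were higher and 4 lower, and among those without it 1 of 4 was higher and 1 lower. A link between the octamer and the direction of change was not tested. These letters are a description of the window, not sites shown to be bound.

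The 15 clustered H2A genes split evenly, with 6 higher and 6 lower (40% each, beside 30.9% and 31.7% of all genes). HIST2H2AA4 gave 10.38 and 10.49 in control and 13.75 and 14.01 in PAK1 shRNA cells, a 10.9-fold rise and the largest of any histone gene (3.45 ± 0.10, adjusted p = 1.56e-06). Its probe lists accessions of 2 copies of the gene, now named H2AC18 and H2AC19. HIST1H2AD rose from 12.87 and 12.98 to 15.87 and 16.10 (3.06 ± 0.10, adjusted p = 1.94e-06). HIST2H2AB rose from 12.66 and 12.87 to 14.81 and 15.05 (2.16 ± 0.11, adjusted p = 1.17e-05). HIST1H2AE rose from 10.97 and 11.36 to 12.51 and 12.78 (1.47 ± 0.15, adjusted p = 0.000195). In each of these, both PAK1 shRNA arrays lay above both control arrays. At the other end, HIST1H2AI fell from 9.96 and 10.31 to 8.09 and 8.14 (-2.02 ± 0.12, adjusted p = 2.04e-05), and HIST1H2AL (-1.83), HIST1H2AJ (-1.16), HIST2H2AC (-0.81), HIST1H2AH (-0.71) and HIST1H2AB (-0.34) were lower too. HIST1H2AK, HIST3H2A and the testis gene HIST1H2AA lay between 0.01 and 0.09 and did not pass the test.

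Clustered genes of one class encode nearly the same protein, and their probes can be nearly the same too. The probes of HIST1H2AD, HIST1H2AK and HIST1H2AJ are shown for this reason, since they read the same stretch near the end of the H2A coding sequence but gave 3.06, 0.09 and -1.16. Capitals mark bases that differ from the HIST1H2AD probe at the same place, after the HIST1H2AJ probe was moved by 2 bases.
HIST1H2AD (chr6:26199083-26199142, minus strand, hg19): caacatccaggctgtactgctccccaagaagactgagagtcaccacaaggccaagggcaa
HIST1H2AK (chr6:27805729-27805788, minus strand, hg19): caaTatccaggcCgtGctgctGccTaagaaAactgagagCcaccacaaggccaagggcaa
HIST1H2AJ (chr6:27782132-27782191, minus strand, hg19): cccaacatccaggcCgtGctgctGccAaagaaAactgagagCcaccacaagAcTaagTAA
The HIST1H2AD probe matched that of HIST1H2AK at 53 of 60 bases and that of HIST1H2AJ at 47. In all, 21 tested histone genes were represented by a probe that matched a probe of another histone gene at 45 or more bases, and signal from one gene on the probe of another cannot be told apart there. Without these genes, 5 H2A genes were higher and 5 lower. Histone probes were compared only with each other, not with the transcripts of other histone genes. Leaving these genes out, here and below, therefore does not remove all such signal.

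The clustered H2B genes were mostly higher: of 17, 12 rose and 1 fell, a share of 70.6% beside the 30.9% of all genes, with a median log2 fold change of 0.61. The rises lay between 0.30 for HIST1H2BH and 1.43 for HIST1H2BK. HIST1H2BK gave 12.22 and 12.32 in control and 13.68 and 13.72 in PAK1 shRNA cells (1.43 ± 0.08, adjusted p = 1.2e-05). HIST1H2BI gave 11.61 and 11.80 against 12.78 and 12.79 (1.08 ± 0.09), and HIST1H2BM gave 11.82 and 11.94 against 12.93 and 12.93 (1.05 ± 0.08). In these genes the 2 PAK1 shRNA arrays nearly coincided above the control arrays. HIST1H2BF was the single H2B gene that fell, from 8.27 and 8.69 to 6.70 and 6.63 (-1.81 ± 0.14, adjusted p = 5.52e-05). HIST1H2BB, HIST1H2BE, HIST3H2BB and HIST1H2BN lay between 0.10 and 0.23 and did not pass. Without genes of shared probe sequence, 9 of 14 were higher, 1 lower, and the median was 0.38. The methods' t-test with adjustment called 7 of 17 higher (41.2%, beside 19.8% of all genes).

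No clustered H3 gene was higher by its brightest probe, although a second, dimmer HIST1H3H probe rose (0.43 ± 0.08). Of 13, 10 were lower (76.9%, beside 31.7% of all genes), and the median log2 fold change was -0.59. HIST2H3A gave 12.49 and 13.16 in control and 9.48 and 9.36 in PAK1 shRNA cells, or 9.46% of control (-3.40 ± 0.20, adjusted p = 1.99e-05). Its probe lists accessions of 2 copies, now H3C14 and H3C15. HIST1H3B gave 11.52 and 12.12 against 10.03 and 10.25 (-1.68 ± 0.19, adjusted p = 0.000333), and HIST1H3A gave 14.06 and 14.18 against 13.19 and 13.13 (-0.96 ± 0.08, adjusted p = 7.78e-05). The groups did not overlap in these genes, although the control arrays differed by more than 0.5 in HIST2H3A and HIST1H3B. HIST3H3, known from testis, gave 15.98 and 16.18 against 15.63 and 15.71 (-0.41 ± 0.09, adjusted p = 0.00753). HIST1H3D, HIST2H3D and HIST1H3C gave -0.58, -0.30 and -0.13 and did not pass.

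The count of lower H3 genes depended on single arrays and on the test. Without PAK1 shRNA replicate 1, 6 of 13 H3 genes were lower, and without control replicate 2, 7 were lower with a median of -0.35. Without control replicate 1, 12 were lower, with a median of -0.93. The methods' t-test with adjustment called 2 of 13 lower (15.4%), a share below the 21.3% of all genes lower by that test, and without adjustment 5 (38.5%, beside 28.0%). No H3 gene was higher in any of these fits. Of the 13, 9 had a probe of shared sequence, and of the other 4, 3 were lower.

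Of the 13 clustered H4 genes, 6 were lower (46.2%) and 3 higher (23.1%), beside 31.7% and 30.9% of all genes. Their median was -0.19, and it moved to -1.29 over the 8 genes without shared probe sequence. The 13 tested H4 genes encode the same protein. HIST1H4C gave 16.20 and 16.60 in control and 14.13 and 14.06 in PAK1 shRNA cells, or 20.3% of control (-2.30 ± 0.14, adjusted p = 1.81e-05). HIST1H4E gave 11.58 and 12.08 against 9.91 and 9.77 (-1.99 ± 0.16, adjusted p = 6.98e-05). HIST1H4B (-1.95 ± 0.16, adjusted p = 7.2e-05) fell by a similar amount. In HIST1H4L (-1.94) spots marked as outliers left 1 array per group, control 1 at 13.81 and PAK1 shRNA 2 at 11.87, so this value has no replicate check. A second, dimmer HIST1H4L probe with all arrays gave -0.17 ± 0.13 and did not pass (adjusted p = 0.296). HIST1H4J (-0.64) was lower too, and so was the brighter probe of HIST1H4A (-0.62), while a probe that overlaps it gave -0.01 ± 0.08 (adjusted p = 0.917). The calls of HIST1H4L and HIST1H4A were lost with the mean over a gene's probes. HIST1H4F (0.42), HIST2H4B (0.60) and HIST1H4D (0.69) were higher, while HIST1H4K, HIST4H4, HIST1H4I and HIST1H4H lay between -0.19 and 0.23 and did not pass. A second HIST1H4K probe was lower (-0.61), and so was a second HIST1H4D probe (-0.96 ± 0.15, adjusted p = 0.00132).

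By cluster, 18 of 52 tested genes of HIST1, on chromosome 6, were higher (34.6%) and 23 lower (44.2%), beside 30.9% and 31.7% of all genes. Of 8 genes of HIST2, 5 were higher (62.5%) and 2 lower (25.0%). Of the 3 genes of HIST3, 1 was lower, and HIST4H4 alone stands for its cluster. Both directions were thus present within the large cluster, and neighbors could be called in opposite directions. Many H2A and H2B genes start head to head, and 12 pairs of histone genes with starts within 1000 bases were found in the RefSeq table. HIST1H2AD and HIST1H3D have the same start in that table, so HIST1H2BF is paired with each of them. Both genes were tested in 11, and of these 3 pairs had both genes higher, none had both lower and 5 had 1 gene higher and 1 lower. HIST1H2BC and HIST1H2AC rose together (0.88 and 2.09), as did HIST1H2BG and HIST1H2AE (0.90 and 1.47) and HIST1H2BO and HIST1H2AM (0.40 and 1.18). A second HIST1H2AM probe fell (-1.71 ± 0.14), so the direction of that last pair is not settled. HIST1H2BL and HIST1H2AI were called apart (0.64 and -2.02), as were HIST1H2BM and HIST1H2AJ (1.05 and -1.16) and HIST1H2BF and HIST1H2AD (-1.81 and 3.06). The others were HIST1H2BH and HIST1H3F (0.30 and -0.70) and HIST2H2BE and HIST2H2AC (0.67 and -0.81). The probes of HIST1H2AJ, HIST1H2AD and HIST1H3F are of shared sequence, and those of HIST1H2AI and HIST1H2BF hold the stem-loop. The part of the probes in these differences was not tested.

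All 7 clustered genes on a list of those known to give polyadenylated mRNA were higher, beside 30.9% of all genes, with a median log2 fold change of 1.08. The methods' t-test with adjustment called 4 of the 7 higher, beside 19.8% of all genes, and lost HIST1H2AC, HIST2H2BE and HIST1H2BJ. Of the other 57 clustered genes, 16 were higher and 26 lower, beside 30.9% and 31.7% of all genes, with a median of -0.19. Most genes of the list are H2B genes and none is an H3 or H4 gene. Some H2B genes outside the list rose too, such as HIST1H2BI (1.08) and HIST1H2BM (1.05), while HIST1H2BF fell (-1.81) and others did not pass. The part of histone class in this contrast was not tested. Besides HIST1H1C and HIST1H2BK, described above, the list held 5 genes. HIST1H2AC gave 9.80 and 10.38 in control and 12.05 and 12.31 in PAK1 shRNA cells (2.09 ± 0.19, adjusted p = 0.000122). HIST1H2BD gave 10.96 and 11.06 against 12.05 and 12.14 (1.08 ± 0.08, adjusted p = 4.68e-05), and HIST1H2BC gave 9.60 and 9.82 against 10.58 and 10.60 (0.88 ± 0.09, adjusted p = 0.000244). In these genes every PAK1 shRNA array lay above every control array. HIST2H2BE gave 7.91 and 7.97 against 8.50 and 8.71 (0.67 ± 0.09, adjusted p = 0.000848). HIST1H2BJ gave 9.67 and 9.86 against 10.07 and 10.17 (0.36 ± 0.09, adjusted p = 0.0129), a call lost without control replicate 1 (adjusted p = 0.0568) and without PAK1 shRNA replicate 2 (0.0679). The list was drawn up from general knowledge with earlier results of these arrays known.

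**Figure D3:**
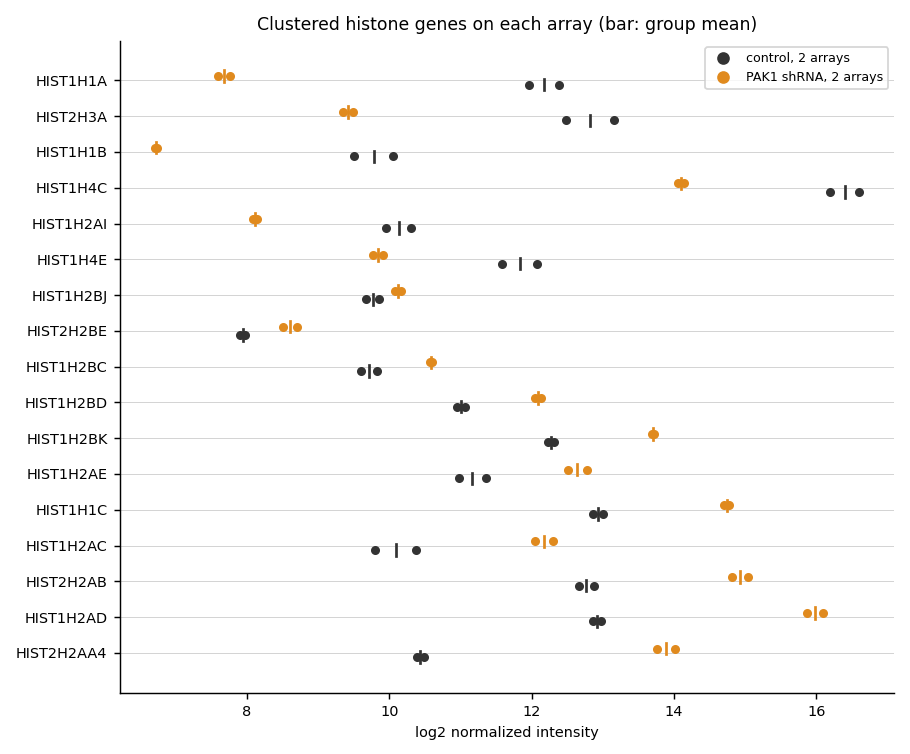
The log2 normalized intensity (x axis) of 17 clustered histone genes on each of the 2 control and 2 PAK1 shRNA arrays, with a short bar at each group mean. The genes are the 6 largest falls, the 6 largest rises and those of the polyadenylated list. The groups do not overlap in any of them, and control 2 lies above control 1 in all 17.

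Probes of the same gene could give different answers, and 15 histone genes had more than 1 probe. HIST1H2AC had 3: the brightest gave 2.09, a probe 14301 bases further along the plus strand gave 2.15 ± 0.08, and one that overlaps the first gave 0.26 ± 0.15. HIST1H2BK had a probe at the distal site (1.43) and one 8186 bases away at the gene itself (0.83 ± 0.08), which shares bases with probes of HIST1H2BC and HIST1H2BD. HIST2H2BE gave 0.67 and 1.98 ± 0.08, the second from a probe 977 bases further along the transcript. In these genes the probes agreed in direction where they were called.

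In 3 clustered genes, probes were called in opposite directions. In HIST1H2AM the brighter probe gave 13.33 and 13.53 in control and 14.51 and 14.71 in PAK1 shRNA cells (1.18 ± 0.11). The other gave 9.95 and 10.33 against 8.34 and 8.52 (-1.71 ± 0.14, adjusted p = 4.26e-05). In HIST1H4D the brighter probe gave 11.15 and 11.62 against 12.02 and 12.13 (0.69 ± 0.15), and the other gave 10.27 and 10.76 against 9.60 and 9.51 (-0.96 ± 0.15, adjusted p = 0.00132). In both genes the probe that fell lies further toward the 3′ end. In HIST1H3H the brighter probe gave 10.60 and 11.08 against 10.18 and 10.32 (-0.59 ± 0.16), a call lost without PAK1 shRNA replicate 1 (adjusted p = 0.0607). Its other probe, 154 bases further along, rose from 7.62 and 7.68 to 8.14 and 8.02 (0.43 ± 0.08, adjusted p = 0.00271). With the mean over a gene's probes, HIST1H2AM gave -0.27 (adjusted p = 0.116), HIST1H4D gave -0.14 (0.495) and HIST1H3H gave -0.08 (0.541), so none of these genes has a settled direction.

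The probes of HIST1H2AM and HIST1H4D are shown because their place within the gene differs. The probe that rose lies wholly in the coding sequence, where family members are alike, and the one that fell runs past the stop codon (in capitals) by 28 bases in HIST1H2AM and 41 in HIST1H4D, which are not shown.
HIST1H2AM, higher (chr6:27860577-27860636, minus strand, hg19): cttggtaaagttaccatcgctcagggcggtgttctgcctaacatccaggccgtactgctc
HIST1H2AM, lower (chr6:27860507-27860566, minus strand, hg19, start of probe): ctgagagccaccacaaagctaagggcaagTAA
HIST1H4D, higher (chr6:26189001-26189060, minus strand, hg19): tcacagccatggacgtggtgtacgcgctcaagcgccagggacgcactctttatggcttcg
HIST1H4D, lower (chr6:26188952-26189011, minus strand, hg19, start of probe): ttatggcttcggcggcTGA

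**Figure D4:**
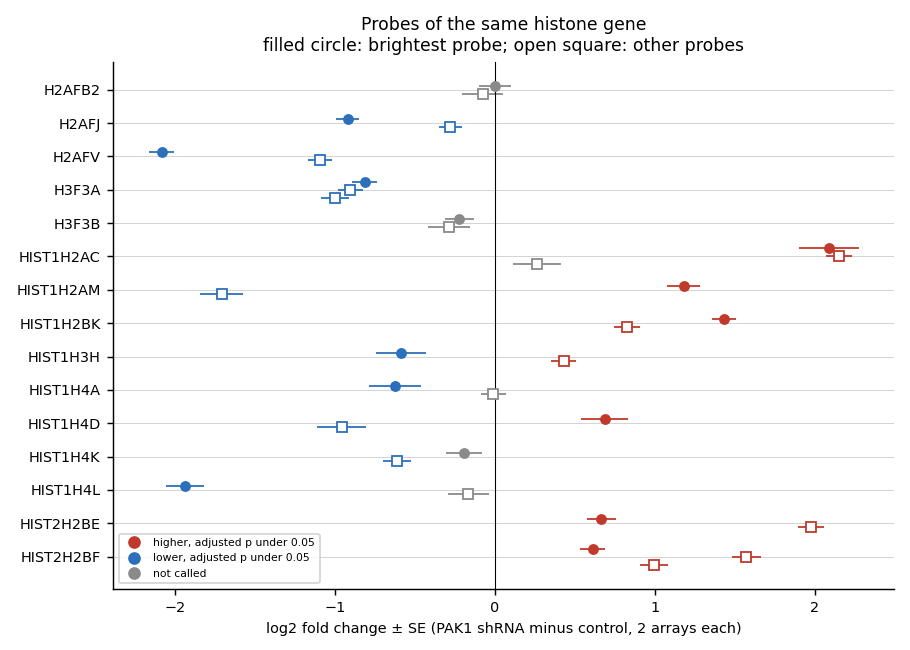
The log2 fold change (PAK1 shRNA minus control, x axis) of each probe that passed the filter in the 15 histone genes with more than 1 probe, with bars of 1 SE from limma over 2 arrays per group. Filled circles are the brightest probe of a gene and open squares its other probes. In HIST1H2AM, HIST1H4D and HIST1H3H the probes lie on opposite sides of 0.

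The stem-loop that ends replication-dependent histone mRNA was looked for in the probes themselves, as GGCNCTTTTNAG on the strand of the probe. It was in 7 of 100 histone probes and in 10 of the 34127 probes of the array (0.0293%). These probes read the very end of the mature mRNA. The 24 bases around the motif, which is in capitals, are shown with the position of the whole probe, for the probe that fell most, one that fell in a class that mostly rose, and one that rose.
HIST2H3A (chr1:149824626-149824685, plus strand, hg19, probe that holds it): caaaaGGCTCTTTTCAGagccacc
HIST1H2BF (chr6:26200153-26200212, plus strand, hg19, probe that holds it): tcccaaaGGCTCTTTTAAGagcca
HIST1H3H (chr6:27778255-27778314, plus strand, hg19, probe that holds it): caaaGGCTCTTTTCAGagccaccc
Of the 7, the probes of HIST2H3A (-3.40), HIST1H2AI (-2.02), HIST1H2BF (-1.81) and HIST1H4K (-0.61) were lower, that of HIST1H3H was higher (0.43), and those of HIST1H2BE (0.11) and HIST3H2BB (0.21) did not pass. The single H2B gene that fell is thus one of 3 H2B genes read at the stem-loop.

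The genes that make histone mRNA and end it were mostly lower: of 14, 10 fell (71.4%, beside 31.7% of all genes) and 2 rose (14.3%, beside 30.9%), with a median log2 fold change of -0.47. One of the 10, CPSF2 (-0.43), was well above background on only 2 arrays. It was tested because 1 group passed the filter, so its fall adds no support. NPAT, the coactivator that cyclin E-CDK2 phosphorylates at histone clusters, gave 8.56 and 8.78 in control and 8.03 and 8.09 in PAK1 shRNA cells (-0.61 ± 0.09, adjusted p = 0.00135). CASP8AP2, which works in the same nuclear bodies, gave 10.44 and 10.36 against 9.32 and 9.39 (-1.05 ± 0.08, adjusted p = 4.45e-05). SLBP, which binds the stem-loop and is itself made in S phase, gave 13.64 and 13.69 against 12.10 and 12.12 (-1.55 ± 0.07, adjusted p = 7.06e-06). The groups were clear of each other in all of them. LSM11 (-1.03 ± 0.07, adjusted p = 3.79e-05) and LSM10 (-0.97 ± 0.10, adjusted p = 0.000244), the parts of the U7 particle that are found in no other snRNP, fell as well. SYMPK, a scaffold of the cleavage complex, rose (0.50 ± 0.08, adjusted p = 0.00174). HINFP, which activates H4 genes, rose by 0.27 ± 0.07 (adjusted p = 0.0138), a call lost without PAK1 shRNA replicate 1 (0.0653) and without PAK1 shRNA replicate 2 (0.0577).

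The histone chaperones, which carry new histones to DNA, were lower in 16 of 22 (72.7%, beside 31.7% of all genes) and higher in 3 (13.6%, beside 30.9%), with a median of -1.10. HJURP, the chaperone of the centromere H3 variant CENPA, gave 13.81 and 13.79 in control and 9.03 and 8.89 in PAK1 shRNA cells (-4.84 ± 0.08, adjusted p = 3.42e-07). CENPA itself, which the name rule does not take in, gave 11.07 and 11.19 against 7.33 and 7.21 (-3.86 ± 0.08, adjusted p = 5.56e-07). Of the genes outside the rule, H2BFM was tested too and was lower (-1.14). Chaperones tied to DNA replication followed: MMS22L (-3.36 ± 0.08), ASF1B (-2.91 ± 0.08) and CHAF1A (-2.77 ± 0.07), the large subunit of CAF-1, were lower, with adjusted p of 6.55e-07, 1.15e-06 and 9.7e-07. HIRA, which places replacement H3 independently of replication, rose from 11.70 and 12.01 to 12.87 and 12.75 (0.96 ± 0.12, adjusted p = 0.000429). DAXX, another chaperone of replacement H3, gave 0.31 ± 0.08 (adjusted p = 0.0176), which did not pass without control replicate 1 (0.0712), PAK1 shRNA replicate 1 (0.0596) or PAK1 shRNA replicate 2 (0.0678).

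**Figure D5:**
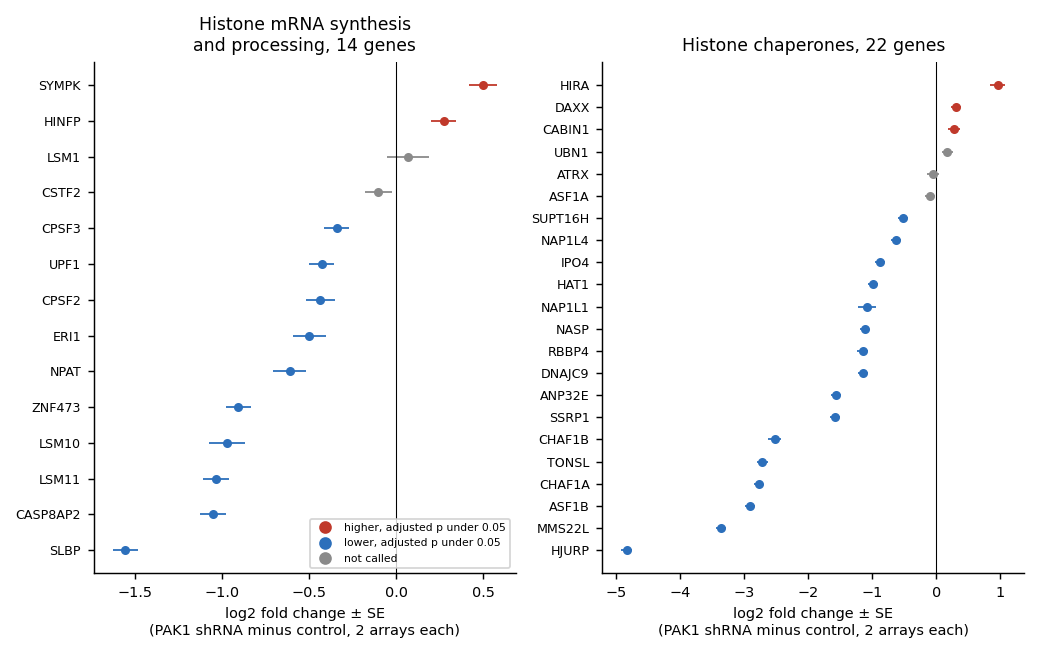
The log2 fold change (PAK1 shRNA minus control, x axis) of 14 genes of histone mRNA synthesis and processing and of 22 histone chaperones, with bars of 1 SE from limma over 2 arrays per group. SLBP and HJURP are the lowest of their lists, and SYMPK and HIRA the highest.

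Genes known to be expressed in S phase mostly fell, as the processing and chaperone lists did, while clustered histone genes moved both ways. Of 43 on such a list, 42 were lower (97.7%, beside 31.7% of all genes) and 1 higher, with a median log2 fold change of -2.23, and 4 of them, SLBP, CASP8AP2, NASP and CHAF1B, are also on the lists above. Among the 42, E2F8 (-1.95) was well above background on only 2 arrays and likewise passed the filter through 1 group. PCNA, the sliding clamp of DNA polymerases, gave 13.51 and 13.69 in control and 12.09 and 12.04 in PAK1 shRNA cells (-1.53 ± 0.09, adjusted p = 1.69e-05). The part of a change in cell cycle phase in the histone values was not tested. Of 7 tested genes on a list of histones known from the germ line, 3 were higher (42.9%) and 2 lower (28.6%), beside 30.9% and 31.7% of all genes. Without HIST1H1T, 2 of 6 were higher and 2 lower, with values from -0.41 to 0.51.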

How the data were processed

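The 4 human arrays were grouped by their labels, 2 control and 2 PAK1 shRNA. The deposited scanner files hold spot intensity values from Agilent Feature Extraction 9.5.3.1, not yet normalized across arrays. A second deposited table holds log2 values that the authors had normalized, and served as an alternative. The filter behind that table is not stated. Its column medians lay between 9.397 and 9.423. Probe positions are those of the scanner files (hg19), with gene names as the array design gave them. Current names and promoters came from RefSeq tables (GRCh38.p14).

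Mean intensities were corrected for local background with normexp (offset 50), whose parameters were fitted without spots of outlying background, since such spots moved the fit on both control arrays. Control spots were dropped before quantile normalization. Outlier spots were left out, spots of a probe were averaged, and a probe stayed in if both arrays of 1 group or more had it well above background. The brightest probe stood for a gene. The test was that of limma 3.58.1 (lmFit, eBayes, R 4.3.3), with Benjamini-Hochberg adjustment over all 21990 genes and a threshold of 0.05. An exact permutation test of 2 arrays against 2 cannot give a p under 0.333 and was not used. The number of arrays limits the precision.

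The members and gene lists were chosen with earlier results of these data known. Named genes were PAK1, all tested variants, CENPA, the 6 largest rises and falls among clustered genes, the polyadenylated list, genes with probes called in opposite directions, and, of the mRNA processing and chaperone lists, the 4 largest falls and 2 largest rises with NPAT, CASP8AP2 and SLBP. Other genes are named to complete a class or a list. Alternatives changed the normalization, background correction, signal column, test, threshold, filter, probe rule and outlier spots, used the authors' values or a replicate block, left out each array and, added after the data were seen, probes of shared sequence left out and the medians of each class.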

Additional observations from a re-analysis of the deposited data

How the results depend on the processing

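The main calls kept their direction: no histone gene was called the opposite way under any alternative, although HIST1H2AM and HIST1H4D changed sign, to -0.27 and -0.14, without passing the test, when a gene's probes were averaged. The ordinary t-test with adjustment called 4157 genes higher and 4484 lower, of which 13 and 12 were clustered histone genes. Unadjusted, it called 16 clustered genes lower. A 2-fold minimum left 1951 genes higher and 1965 lower, 12 and 14 of the clustered genes and 1 and 5 of the variants, and PAK1 at -0.75 fell short of it. The variant median was -0.60 under cyclic loess. The H2B median was 0.53 under median centring, 0.40 with no filter and 0.38 without shared probe sequence, which moved the H4 median to -1.29. The H1 median was -0.55 with probes above background on all arrays. With each array left out, the H2B median lay between 0.52 and 0.67, the H3 median between -0.93 and -0.35, the H1 median between -0.36 and -0.03, the H4 median between -0.34 and -0.02 and the H2A median between -0.07 and 0.17. Median centring and the processed signal shifted the median of all genes to 0.14 and 0.12, and values under them include that shift. The causes were not tested.

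Of 912 values of 48 other named genes, 854 kept their side of the threshold, 54 fell short of it with the same sign and 2 gained it. The other 2, of HIST1H2AM and HIST1H4D, fell short of it and changed sign. A change of sign in a value not called in either fit counted as kept. Deviations of same-numbered arrays correlated at 0.011 over 26303 probes, and shared numbers were not taken as pairs. The replicate block called 23 clustered genes higher and 27 lower, and 3 and 10 of the variants. The slide block was not run, since all arrays lay on 1 slide. Signal over background limited the dim genes, among them HIST1H1T, H1FOO and the 4 untested ones.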
